A study of Mus musculus with 11 samples.

Results

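STAT5A peaks that stood 10 to 100 kb away from the nearest H3K4me3 region were examined in mammary tissue at day 6 of pregnancy (P6). A peak was taken when the stretch of sequence between it and the nearest edge of an H3K4me3 region on the same chromosome was longer than 10000 bp and at most 100000 bp, on chromosomes 1 to 19 of the mouse build mm9. This gave 3734 of the 8735 autosomal peaks, out of 8822 in the whole list. The 1788 peaks that overlapped or adjoined a region, the 1638 within 10 kb of one and the 1575 beyond 100 kb serve for comparison. Because the rule uses the distance to H3K4me3, the distances themselves are given as a description.

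STAT5A is a transcription factor that prolactin activates through its receptor and the kinase JAK2; it then enters the nucleus and binds DNA as a dimer. In the mammary gland it is needed for the alveolar epithelium that forms during pregnancy and for the transcription of milk protein genes. H3K4me3, trimethylation of lysine 4 of histone H3, marks the promoters of active or poised genes. Whether peaks far from its regions also lie far from promoters was not tested, because no gene positions were used. No enhancer mark was analysed here, and the class is defined by distance alone. Its peaks are called distal below, which refers only to their distance from the H3K4me3 regions in the list.

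Both lists came from whole mammary gland of wild-type mice of the background 129SV::FVB/N::C57BL/6 at P6, with no treatment named, and each is 1 library. The tissue was not sorted, so peaks of epithelial, fat and other cells are pooled, and fewer cells of a type cannot be told apart from weaker binding per cell. Peak lists hold no gene levels, and the tissue was therefore not checked against cell type markers. The series covers P6 to parturition with STAT5A and H3K4me3 ChIP-seq, and its RNA-seq is labelled with the last stage only. Its H3K4me3 between these stages is from a sample labelled WTMECs. The title of the series names the order in which STAT5 and H3K4me3 arrive at mammary genes as its question. Every interval below is a 95% interval for counting error only; with 1 library per antibody and no replicates there is no test and no measure of variation between animals. Sequencing depth is unknown for both libraries. The score of each peak and region is the authors' own value, on a scale that the sources used here do not name, and it is used only within its own list.

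The peaks at 10 to 100 kb were the most numerous distance class and made up 42.7% of autosomal STAT5A peaks (interval 41.7 to 43.8). The bases of the genome at that distance from H3K4me3 came to 855 Mb, 35.5% of the 2408 Mb between the first and last coordinates in the lists. The class thus held 4.36 peaks per Mb (interval 4.23 to 4.51). Beyond 100 kb, where 53.5% of the sequence lay, the density was 1.22 per Mb (1.16 to 1.28), so that the class was 3.57 times as dense as the sequence farther out. Within 10 kb of a region, outside it, the density was 6.71 per Mb (6.39 to 7.04), 1.54 times that at 10 to 100 kb. The regions themselves, 0.87% of the sequence, held 85.7 peaks per Mb (81.8 to 89.8). Unsequenced stretches of the assembly were not removed from these lengths, and their part in the density beyond 100 kb was not tested.

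Density fell with distance inside the class, though not at every step. It was 5.33 peaks per Mb (5.00 to 5.68) at 10 to 20 kb and 4.97 (4.61 to 5.35) at 20 to 30 kb. Between 30 and 70 kb it stayed between 4.04 and 4.25 per Mb, with intervals that overlapped one another. From there it went to 3.46 at 70 to 80 kb, 3.20 at 80 to 90 kb and 3.07 (2.61 to 3.6) at 90 to 100 kb. The innermost of these 9 bands was 1.74 times as dense as the outermost, and their intervals did not overlap. The outermost band was still 2.51 times as dense as the sequence beyond 100 kb, so the limit of 100 kb does not coincide with the level of that sequence. The bands draw on different stretches between neighbouring regions, since short stretches reach only the inner bands. At 10 to 100 kb, stretches above 500 kb held 2.73 peaks per Mb and those of 200 to 500 kb held 4.41. The part of stretch length in the fall with distance was not tested.

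**Figure D1:**
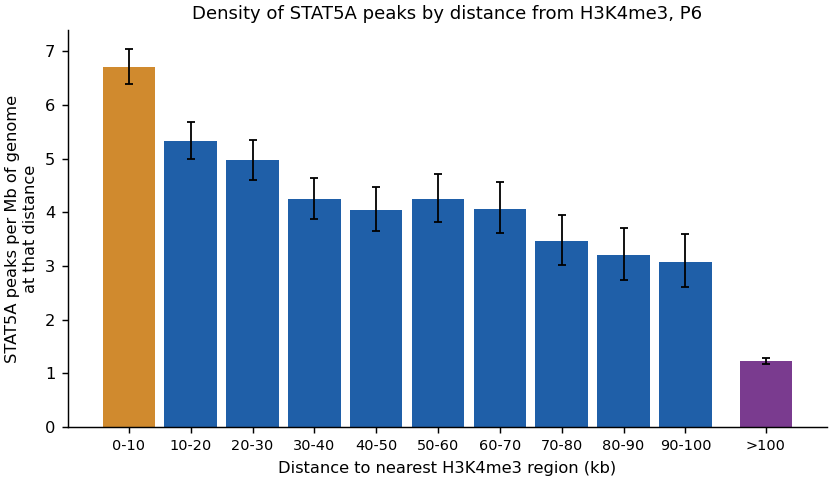
STAT5A peaks per Mb of genome (vertical axis) by distance to the nearest H3K4me3 region in kb (horizontal axis), on chromosomes 1 to 19; blue bars are the class at 10 to 100 kb, and black lines are exact Poisson 95% intervals. The bars go from 6.71 within 10 kb to 3.07 at 90 to 100 kb and 1.22 beyond 100 kb. Peaks on a region, at 85.7 per Mb of region sequence, are not drawn.

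The median gap to the nearest region was 33.4 kb (interval 32.3 to 34.7), the quartiles were 19.7 and 57.2 kb, and the extremes 10010 and 99974 bp. Of the 3734 peaks, 1677 (44.9%) lay within 30 kb and 1182 (31.7%) beyond 50 kb. The nearest region was at lower coordinates for 1856 peaks and at higher coordinates for 1878, an even division (49.7% lower, interval 48.1 to 51.3). Whether these sides are upstream or downstream of genes was not analysed here. Just inside the inner limit stood a peak on chromosome 7 from 107297494 to 107297708, with a gap of 10010 bp and a score of 5.1, and one on chromosome 9 from 101164487 to 101164701, with 10021 bp and 8.3. Just outside it were peaks at 9994 bp, with a score of 4.8, and at 10000 bp, with 5.7. At the outer limit, the last peaks inside had gaps of 99937 and 99974 bp and scores of 4.5 and 5.7. The first outside had gaps of 100038 and 100097 bp and scores of 13.2 and 4.8.

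Many of these peaks had marked chromatin within 100 kb on one side only. A region lay within 100 kb on both sides of 1509 of them (40.4%, interval 38.8 to 42.0), against 67.2% of those within 10 kb. For peaks on a region the share was 70.3%, but there the region under the peak was counted as 1 of the sides. Beyond 100 kb no peak can have such a region, so these shares depend in part on the distance rule. For the peaks at 10 to 100 kb the region on the other side stood at a median of 124 kb. Only 10 of them lay before the first or after the last region of a chromosome.

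Scores of the distal peaks were above those of peaks on H3K4me3 and close to those of the other peaks off it. Their median was 6.4 (interval 6.2 to 6.4) and their quartiles 5.1 and 8.6, between 4.3, the lowest score in the list, and 96.1. The median was 5.4 (5.3 to 5.4) for peaks on a region, 6.0 (5.9 to 6.2) within 10 kb and 6.2 (6.0 to 6.4) beyond 100 kb. The first of these intervals lay apart from that of the distal peaks, and the other two touched or overlapped it. Scores of 11.1 and above, the top 10% of autosomal peaks (890 with ties), were held by 454 distal peaks (12.2%, interval 11.1 to 13.2). The share was 3.92% (3.06 to 4.92) on a region, 12.0% (10.4 to 13.6) within 10 kb and 10.8% (9.30 to 12.4) beyond 100 kb. At the low end, 859 distal peaks (23.0%) had a score of at most 5, while 598 (16.0%) exceeded 10 and 65 (1.74%) exceeded 20.

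**Figure D2:**
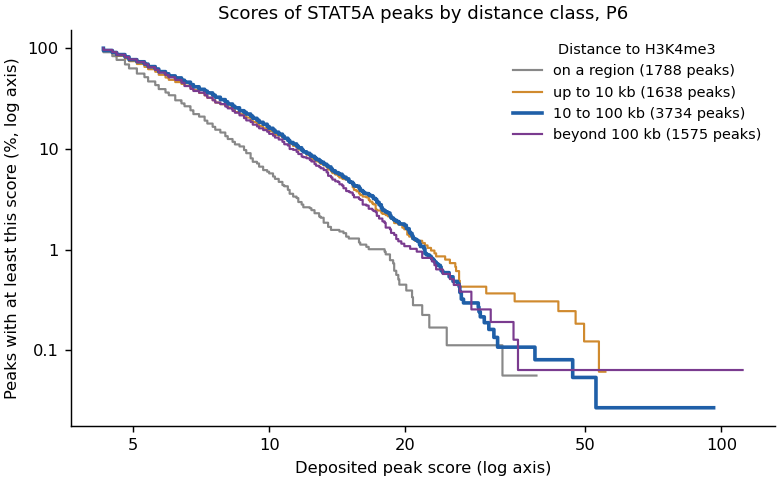
Percentage of STAT5A peaks (vertical log axis) with at least the score on the horizontal log axis, for the 4 distance classes. The curve of the 3734 peaks at 10 to 100 kb runs close to those within 10 kb and beyond 100 kb up to a score of about 20, and that of the 1788 peaks on a region lies below all of them between scores of 5 and 20.

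Inside the class no steady change of score with distance was seen, though the medians were lowest beyond 80 kb. Band medians were between 6.2 and 6.5 from 10 to 80 kb. They were 5.9 (interval 5.6 to 6.5) at 80 to 90 kb and 5.7 (5.6 to 6.4) at 90 to 100 kb, intervals that overlapped those of every nearer band. The share of peaks in that top 10% was 13.0% (10.9 to 15.3) at 10 to 20 kb and 11.7% (7.08 to 17.8) at 90 to 100 kb. It was lowest at 70 to 80 kb, at 9.30% (5.78 to 14.0), and all 9 intervals overlapped. Distal peaks thus thinned out with distance without a detectable change in their share of high scores at these numbers.

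The difference from peaks on H3K4me3 was found on each of the 19 autosomes. The median score of the distal peaks lay between 5.9 on chromosome 7 and 7.0 on chromosome 1, and that of the peaks on a region between 5.1 and 5.9, lower on the same chromosome in all 19 cases. Against peaks beyond 100 kb the distal median was higher on 9 chromosomes, lower on 8 and equal on 2. Against those within 10 kb it was higher on 14, lower on 3 and equal on 2. These chromosomes come from the same 2 libraries and are not replicates.

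Chromosomes 8 and 19 were the richest in distal peaks for the sequence they had at that distance. Chromosome 8 held 252 of them, 6.03 per Mb, and chromosome 19 held 142, 5.69 per Mb. The others ranged from 3.73 per Mb on chromosome 10 to 4.98 on chromosome 15. The share of a chromosome's peaks that were distal was 50% on chromosome 8 (interval 45.5 to 54.5) and 48.99% on chromosome 1 (44.9 to 53.1), and it was lowest on chromosome 11, at 39.1% (35.3 to 43.0). Chromosomes 8 and 19 also had the highest shares of distal peaks with another STAT5A peak within 10 kb, 42.1% of 252 and 41.5% of 142, against 21.6% to 32.5% elsewhere.

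**Figure D3:**
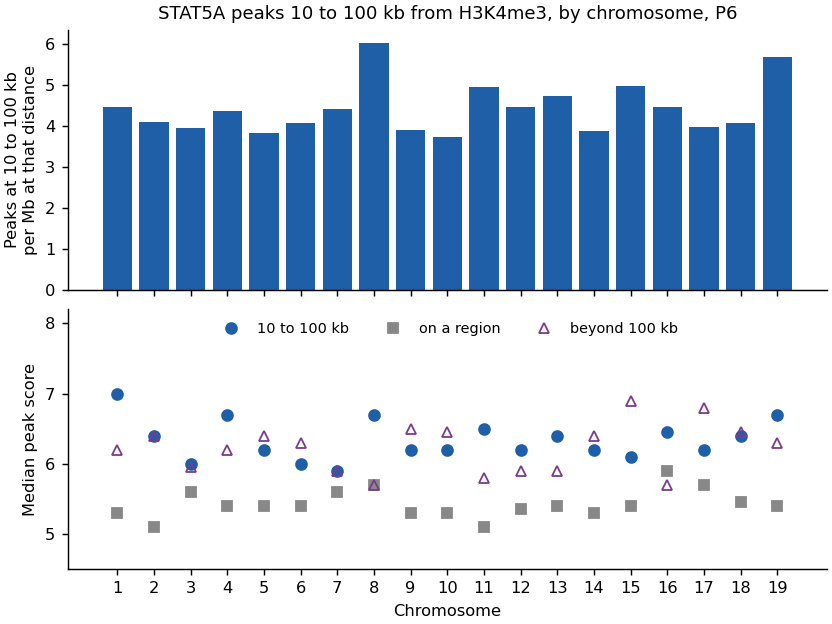
Top: STAT5A peaks at 10 to 100 kb from H3K4me3 per Mb of sequence at that distance, for each autosome. Bottom: median peak score of that class (circles), of peaks on a region (squares) and of peaks beyond 100 kb (triangles); chromosomes 8 and 19 stand highest in the upper plot at 6.03 and 5.69, and each circle lies above its square.

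The highest score in the class, 96.1, belonged to a peak on chromosome 5 from 147072531 to 147072745, second of all autosomal peaks. It stood 28.1 kb above a 2071 bp region and 531 kb below the next one. The second, at 52.8, was on chromosome 11 from 3074270 to 3074484, between regions at 11.7 and 18.3 kb. The nearer of these was 501 bp wide, the minimum width in the list. It was 1 of 9 peaks in the first 200 kb of chromosome 11 covered by the lists, a stretch looked at after its values were seen. All 9 were in the top 10% of autosomal scores, between 19.7 and 55.4, and 3 belonged to the class, the others of these starting at 3001964 and 3004614 with scores of 23.9 and 24.0. The stretch held 8 H3K4me3 regions. The next STAT5A peak stood 337 kb farther on and scored 6.2. Repeated sequence was not analysed here, and its part in these scores was not tested. The third score of the class, 46.9, was on chromosome 1 from 140503456 to 140503670, 10.5 kb from a 2827 bp region. A peak on chromosome 19 from 5822032 to 5822246 scored 38.7 and lay 18.1 kb from a region 6572 bp wide with a region score of 1428; another region began 18.3 kb to its other side. What genes lie there in mm9 was not analysed here.

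The other 6 of the 10 highest scored between 29.1 and 32. On chromosome 7 a peak from 126090950 to 126091164 scored 32 and lay 28.7 kb from a 501 bp region. Chromosome 6 held a peak from 49186404 to 49186618 with a score of 31.4, 25.9 kb from a region, and one from 145959151 to 145959365 with 29.9, the farthest of the 10 at 75.7 kb. On chromosome 5 a peak from 139264471 to 139264685 scored 30.6, with another distal peak 2.12 kb away. The last were on chromosome 11 from 109599695 to 109599909, with 29.3, and on chromosome 8 from 128542685 to 128542899, with 29.1. Of these 10 peaks, 8 lay within 30 kb of a region, 5 had another STAT5A peak within 10 kb, and 4 had a region within 100 kb on both sides. In the whole class these shares were 44.9%, 29.8% and 40.4%. With 10 peaks picked by score, the counts are a description only. Over the class, the share in the top 10% was 13.0% at 10 to 20 kb and between 9.30% and 13.0% in the farther bands. The class, 42.7% of autosomal peaks, also supplied 54 of the 100 autosomal peaks with the highest scores. Of the 890 in the top 10% it held 454. As a share of each class, that top 10% was 12.2% here, 12.0% within 10 kb and 10.8% beyond 100 kb. Only peaks on a region stood apart, at 3.92%.

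Most distal peaks stood alone, and they had close neighbours about as often as STAT5A peaks in general. Another STAT5A peak lay within 10 kb of 1114 of them (29.8%, interval 28.4 to 31.3), against 29.4% (28.5 to 30.4) of all autosomal peaks, themselves included. The share was 25.2% (23.2 to 27.2) on a region, 40.5% (38.1 to 43.0) within 10 kb of one and 21.8% (19.8 to 24.0) beyond 100 kb. The nearest other peak was a median of 27.2 kb away, against 16.7 kb within 10 kb of a region and 60.9 kb beyond 100 kb. For 1030 of the 1114 (92.5%) the neighbour was itself at 10 to 100 kb, for 72 it was within 10 kb of a region and for 12 beyond 100 kb. Much of that share follows from the rule. A neighbour within 10 kb of a peak far from both distance limits must belong to the class as well. With distal peaks linked wherever they lay within 10 kb of each other, 2696 (72.2%) stood alone, 335 pairs held 670, 62 trios held 186, and 21 groups of 4 held 84. Groups of 5 numbered 9, and 6 groups were larger.

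Grouped peaks had higher scores than single ones. The median was 6.7 (interval 6.5 to 7.0) with another peak within 10 kb and 6.2 (6.0 to 6.2) without. The top 10% of scores included 17.1% of the former (15.0 to 19.5) and 10.0% of the latter (8.91 to 11.3). On a region the shares were 6.89% (4.73 to 9.64) with another peak within 10 kb and 2.91% (2.08 to 3.96) without, so the higher share among grouped peaks was not limited to the distal ones. Within 10 kb of a region they were 14.5% (11.9 to 17.4) and 10.3% (8.43 to 12.3), and beyond 100 kb 14.2% (10.7 to 18.4) and 9.83% (8.22 to 11.6), with intervals that overlapped in both cases. A larger number of neighbours did not bring a steady rise: the median score was 6.7 for pairs, 6.7 for trios, 7.0 for groups of 4, 6.7 for groups of 5 and 9.7 for the 53 peaks of the 6 larger groups. Medians of those 6 groups ran from 5.9 to 13.8, the latter for 15 peaks on chromosome 8.

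The largest group was on chromosome 8, where 15 distal peaks stood between 19917509 and 19964175, a span of 46.7 kb. From low to high coordinates their scores were 9.7, 8.6, 11.9, 26.9, 21.2, 17.8, 11, 17.8, 13.4, 16.2, 14.8, 13.8, 11.9, 15.4 and 5.9. The highest pair stood 0.514 kb apart near the lower end, and 11 of the 15 were in the top 10% of autosomal scores. The group fell in the interval between a region from 19892434 to 19893315 and one from 20019849 to 20020856. That interval, 127 kb long, held 21 distal peaks, more than any other between neighbouring regions.

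This stretch of chromosome 8 had further peaks on either side. Another region, from 19784563 to 19785454, stood 107 kb below the first, and the 3 regions were nearest to 7, 14 and 8 distal peaks. Their widths were 892, 882 and 1008 bp, below the median of 1323 bp over all autosomal regions, whereas their region scores of 814, 672 and 645 lay far above the median of 216. Below them the next region was 833 kb away, and above them 3150 kb. The 29 distal peaks nearest to them lay within 293 kb and had a median score of 11, with 14 in the top 10%. They were 11.5% of the distal peaks of chromosome 8, and without all peaks nearest to these regions the chromosome's distal share went from 50% to 47.4%. Repeated sequence was not analysed here, and its part in this stretch was not tested.

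Chromosome 1 held the next groups. A region from 90173250 to 90174850, 37th of all regions by score at 1100, was nearest to 19 distal peaks, more than any other region. Of these, 10 lay at lower and 9 at higher coordinates, 10.6 to 64.6 kb away, with scores from 7.8 to 17.8 and a median of 9.4. This region also carried 2 peaks on itself and 2 within 10 kb of it. The 19 included a group of 7 from 90108413 to 90122606, with scores from 8.6 to 17.8, of which 6 were in the top 10%. A group of 9 from 90185451 to 90206551 had scores from 7.8 to 13.2, of which 1 was.

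The other crowded stretch of chromosome 1 lay beside a weak region. That region, from 85251492 to 85251992, had the minimum width of 501 bp and a score of 36.3, and all of the 13 distal peaks nearest to it were on its side of higher coordinates. Their median score was 7.8, between 4.3 and 21.5, and 9 of them formed a group from 85266648 to 85292498. On chromosome 17 a region from 84864775 to 84866193 was nearest to 9 distal peaks, all at lower coordinates and 51.3 to 97.4 kb away, with a median score of 6.2. On chromosome 12 a region from 78338953 to 78341133, with a score of 1208, was nearest to 8 distal peaks whose scores were low, from 4.3 to 7.0. It was 1 of 3 regions nearest to 8 peaks, taken for its higher region score. Against a median score of 6.4 for the class, the peaks beside the most crowded region of chromosome 8 had a median of 13.6, and those on chromosomes 17 and 12 did not exceed it with 6.2 and 4.5.

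**Figure D4:**
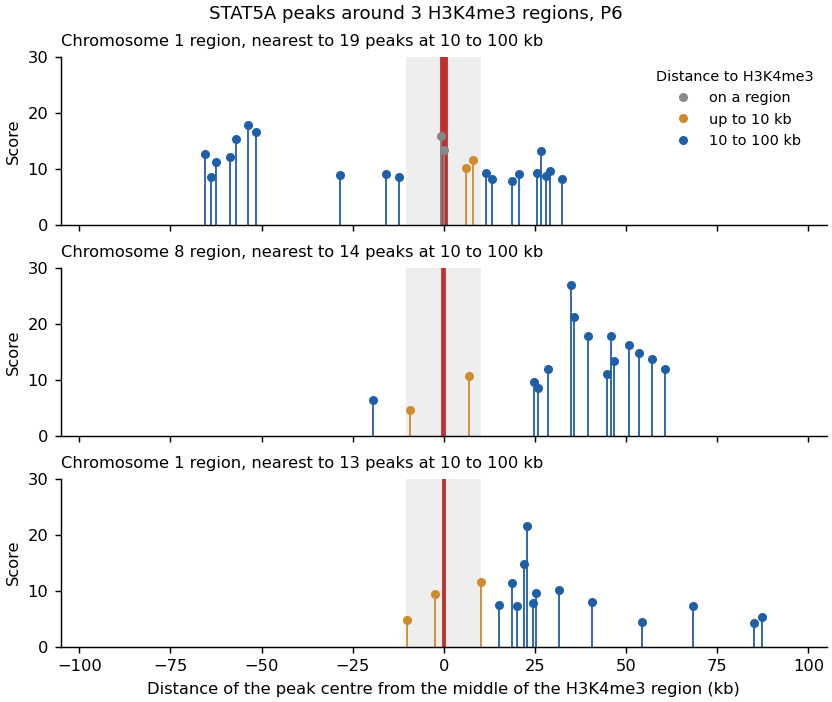
STAT5A peaks nearest to the 3 H3K4me3 regions with the most distal peaks: distance of the peak centre from the middle of the region in kb (horizontal axis) and peak score (vertical axis). The region is red and the 10 kb on either side of its middle grey; distal peaks (blue) stand on both sides for the region with 19 of them and, with 1 exception on chromosome 8, only to the right for the regions with 14 and 13.

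Of the 14296 autosomal H3K4me3 regions, 2492 (17.4%) were the nearest region of a distal peak. Of these, 1731 had 1 such peak and 761 had at least 2, and 2003 distal peaks (53.6%, interval 52.0 to 55.3) shared their nearest region with another. Only 45 regions were nearest to 5 or more. A region can be nearest to such a peak only if the interval beside it leaves room for it. With room taken as an interval longer than 20215 bp to a neighbouring region, or a distal peak already present, 12728 regions had room, and the 10236 of them that were nearest to none served for comparison.

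Regions with a distal peak were wider and more often had STAT5A close by. Their median width was 1516 bp (interval 1473 to 1561), against 1303 bp (1288 to 1318) for regions with room and no distal peak. A STAT5A peak lay on 14.6% of them (13.3 to 16.1) and on 10.98% of the others (10.4 to 11.6). A peak within 10 kb but off the region was nearest to 17.3% (15.8 to 18.8) against 8.44% (7.91 to 9.0). That share was 14.9% (13.3 to 16.7) for regions with 1 distal peak and 22.7% (19.8 to 25.9) for those with 2 or more. Neither a peak on the region nor one within 10 kb belongs to the class, but all of them come from the same library, and local differences in how readily peaks were called were not tested.

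The room beside a region moved with these shares, since the longer interval was a median of 192 kb at regions with a distal peak and 90.6 kb at the others. With regions set apart by that interval the difference in peaks within 10 kb was found at every length. It was 20.2% (13.4 to 28.5) against 9.95% (8.86 to 11.1) up to 50 kb, 20.9% (17.1 to 25.2) against 8.73% (7.68 to 9.86) from 50 to 100 kb, 17.98% (15.3 to 20.9) against 8.72% (7.52 to 10.04) from 100 to 200 kb, and 15.2% (13.2 to 17.4) against 6.43% (5.54 to 7.41) above 200 kb. For peaks on the region the intervals lay apart from 100 kb upwards, at 15.1% (12.7 to 17.9) against 10.01% (8.74 to 11.4) and 13.3% (11.4 to 15.4) against 9.22% (8.17 to 10.4). At shorter intervals they overlapped. Width differed beyond its intervals in the groups from 50 kb upwards, and up to 50 kb it was 1216 bp (893 to 1499) against 1255 bp (1226 to 1283).

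**Figure D5:**
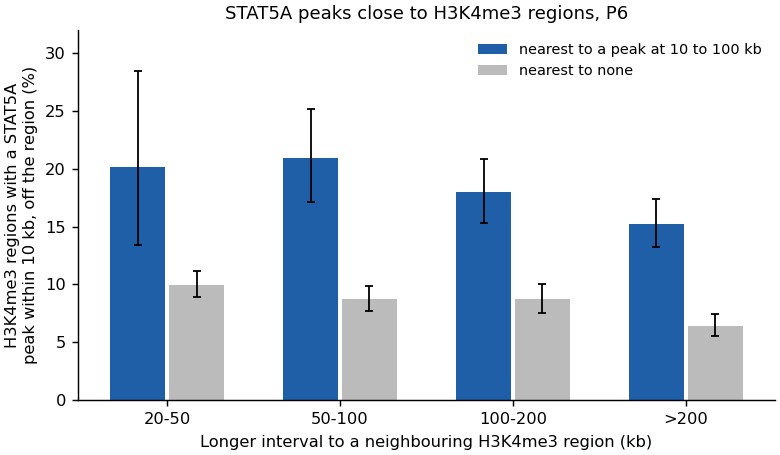
Percentage of H3K4me3 regions with a STAT5A peak within 10 kb but off the region (vertical axis), by the longer interval to a neighbouring region in kb (horizontal axis); blue bars are regions nearest to a peak at 10 to 100 kb, grey bars are regions nearest to none, and black lines are exact binomial 95% intervals. At each length the blue bar is higher, from 20.2% against 9.95% at the left to 15.2% against 6.43% at the right.

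Seen from the intervals between neighbouring regions, 10416 were long enough to hold a distal peak, and 2325 of them (22.3%, interval 21.5 to 23.1) held at least 1. The share was 6.07% in intervals up to 50 kb, 19.03% from 50 to 100 kb, 36.1% from 100 to 200 kb and 42.3% from 200 to 500 kb. In the 1027 intervals above 500 kb it was lower, at 30.1% (27.3 to 33.0). Per Mb of sequence at 10 to 100 kb, the intervals up to 200 kb held 4.91 to 5.39 distal peaks, those from 200 to 500 kb held 4.41 (interval 4.15 to 4.68), and those above 500 kb held 2.73 (2.49 to 2.98). Intervals above 200 kb hold every distance from 10 to 100 kb on both sides, so the last pair compares sequence at the same distances, and their counting intervals did not overlap. Shorter intervals hold less of the far end of that range, where density was lower, and are not matched in distance. At least 3 distal peaks were found in 304 intervals, 116 of them 200 to 500 kb long and 104 of them 100 to 200 kb long.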

How the data were processed

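The deposited STAT5A and H3K4me3 lists of P6 tissue give the position and a score of each peak or region. Per the submitters' processing notes, CASAVA, Bowtie, HOMER and the build mm9 were used; versions, peak settings, the use of an input library and the scale of the score are not stated in the labels or files. Of the 11 samples, 2 were used. An input library of P6 is among the others and was not used. The expression table gives no positions and was not used, and planned results on motifs and nearest genes were left out because no sequence or gene positions of mm9 were used here.

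Gaps were counted as the bases between a peak and the nearest region, from columns 2 and 3, and printed coordinates count from 1. The distance code was tested on simulated data. Distances, classes and groups were computed with Python 3.11.15, pandas 2.3.3 and NumPy 2.4.6. Shares have exact (Clopper-Pearson) intervals, densities exact Poisson intervals and medians binomial order-statistic intervals, from SciPy 1.17.1. Peaks named are the 10 highest in score, the 2 nearest to each limit on either side and the largest group; regions named are the 5 nearest to the most distal peaks, and other large groups were chosen after their values were seen. The class, rules and settings were chosen with earlier results of these data known.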

Additional observations from a re-analysis of the deposited data

How the results depend on the processing

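Of 66 recalculations of 8 results, 48 stayed within the reported value's counting interval and 18 left it. Taking only regions at or above the median region score gave a distal share of 41.3% of peaks, a median gap of 39.3 kb, 31.9% with another peak within 10 kb, 28.0% with regions within 100 kb on both sides, 62.2% sharing their nearest region and a nearest region 1944 bp wide. Without regions of minimum width, the median gap was 34.9 kb, 38.7% had regions on both sides, 55.7% shared a region and the nearest region was 1627 bp wide. Taking only peaks at or above the median peak score gave a distal share of 47.05%, a median score of 8.3, 24.1% with a neighbour and 42.3% sharing a region. With peaks within 1 kb merged, 26.03% had a neighbour and 51.2% shared a region. Counting neighbours within 5 or 20 kb gave 19.8% and 42.8%. Stricter lists hold fewer peaks or regions by construction. Measuring from the peak centre, adding the X chromosome, leaving out chromosome 1 and, chosen after seeing the data, leaving out all peaks nearest to the 5 most crowded regions each kept all 8 results within their intervals. The median score of peaks on a region was below that of distal peaks in all 8 of these settings. The distal median equalled that beyond 100 kb with high-scoring regions alone (6.2 each) and that within 10 kb with high-scoring peaks alone (8.3 each). No paired analysis was possible because each antibody has 1 library at this stage and no result comes from a test. Depth is unknown, so peaks too weak to be called cannot be counted.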

Other observations

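The X chromosome lay outside the class. Of its 87 STAT5A peaks, 29 (33.3%, interval 23.6 to 44.3) were 10 to 100 kb from an H3K4me3 region, 9 lay on one, 18 within 10 kb and 31 beyond 100 kb. The median score of the 29 was 7.2, between 4.3 and 44.6. The highest was on X from 109484439 to 109484653, 58.6 kb from the nearest region, and the next scored 15.4.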
